A study of Mus musculus with 18 samples.

Results

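The genes described here are 39 members of the cell cycle and DNA replication machinery, taken by name from the 32285 genes counted in each library, and all 39 were found. They were followed in the dorsal dermis of wild-type (WT) male C57BL/6J mice kept under a 12:12 light-dark cycle, with 18 mice giving 1 single-cell library each and 3 mice at each of ZT2, ZT6, ZT10, ZT14, ZT18 and ZT22. Zeitgeber time (ZT) is given in hours after the lights came on, so ZT12 to ZT24 is the dark period in which mice are active. The mice were adult with skin in telogen, the resting phase of the hair cycle, per the study's methods. The groups differed by their labels in the hour of collection alone, and every suspension was made by collagenase digestion at 37 °C followed by sorting of live cells. The 3 mice of a time came from 3 successive days, 1 from each.

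To divide, a cell loads the MCM helicase onto replication origins in G1, fires those origins in S phase once cyclin-dependent kinases (CDKs) are active, and then builds the proteins that condense and separate the chromosomes. D-type cyclins with CDK4 and CDK6 drive the G1 step, cyclins A and B with CDK1 drive mitosis, and a set of brakes, among them the CDK inhibitors p21 (Cdkn1a), p27 (Cdkn1b) and p57 (Cdkn1c) and the kinase Wee1, hold the cycle back. Wee1 and Cdkn1a are known to be under the control of the circadian clock in other tissues, and the dermis of resting skin is a tissue in which few fibroblasts divide.

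Transcripts were counted as unique molecular identifiers (UMIs), 1 per captured transcript. Levels are given as UMIs per 10000 UMIs of the cells summed, and are 3′ tag counts, so they carry no correction for transcript length. Of 23990 deposited barcodes, 16877 cells passed the filter, of which 11920 fell in fibroblast clusters and 3378 in immune clusters. A cluster of 714 cells led by haemoglobin genes met 6 fibroblast and 4 red blood cell markers. It was left unnamed and put in neither class. The clustering left out the members and a list of other cell cycle and clock genes, 189 in all, but histone genes stayed in. Summed over cells, a library held 2872628 to 33702918 UMIs in fibroblasts and 481549 to 5800550 in immune cells, and the library with the fewest cells, ZT18 replicate 1, kept 177. Fibroblast markers were at 142 to 354 for Col1a1 and 104 to 159 for Dcn in fibroblasts, and the pan-leukocyte gene Ptprc was at 3.75 to 6.83 in immune cells and at 0 to 0.00714 in fibroblasts. The 6 fibroblast markers were summed to 2.69 to 56.4 in immune cells, a median of 2.27% of their level in the fibroblasts of the same library, and the 12 immune markers in fibroblasts to a median of 0.11% of their level in immune cells. Among all distinct barcodes, 164 occurred in more than 1 library, and 36 among those of kept cells. Of the 164, 89 were shared by ZT10 replicate 3 and ZT6 replicate 2, all 89 were kept in the former and 0 in the latter, where none had over 1100 UMIs. In summed counts, more transcript per cell and more cells with the transcript cannot be told apart.

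The first question was which members changed over the day in fibroblasts. The brakes Cdkn1c and Wee1, the G1 cyclin Ccnd1 and 4 genes of replication licensing and G1 entry (Cdc6, Mcm4, Cdk6 and Mcm2) rose to a peak between ZT12 and ZT17, and the p21 gene Cdkn1a peaked near the end of the night. In all, 8 of the 38 members tested (21.1%) had a 24 h rhythm by the quasi-likelihood test of edgeR (adjusted p under 0.05), against 13.3% of all 12814 genes tested. The difference between these shares was not tested, and the members had been chosen with earlier results of these data known. Of the 8 members, 7 peaked between ZT11 and ZT17, where 33.1% of all rhythmic genes peaked. That window brackets the fitted peaks of these 7, so the count is a description, and it was not tested against the 33.1%. The rhythmic members were 3 of 9 licensing and helicase genes, 2 of 9 G1/S cyclins and CDKs, 3 of 6 brakes, 0 of 4 fork and nucleotide genes and 0 of 10 tested mitotic genes. Only Bub1 was not tested, for low counts. The JTK_Cycle test, a rank test for rhythm used without adjustment over genes, called 4 of the 38 (Mcm4, Ccnd1, Cdkn1c and Wee1), against 7.76% of all genes.

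Cdkn1c encodes p57, a CDK inhibitor that keeps cells out of the cycle, and lies on chromosome 7 at 143458339 to 143461050 of mm10, on the minus strand. Its level in fibroblasts was 1.04, 1.32 and 0.969 in the 3 mice of ZT2 and 0.892, 1.03 and 1.203 at ZT6. It was 1.31, 1.42 and 1.32 at ZT10, and 1.51, 2.36 and 1.65 at ZT14. It was 2.12, 1.80 and 1.77 at ZT18, and 1.27, 1.37 and 1.25 at ZT22. Every mouse of ZT14 and ZT18 lay above every mouse of the 4 other times. The fitted amplitude was 0.44 ± 0.08 on the log2 scale from centre to peak (± jackknife standard error over 18 libraries), a peak-to-trough ratio of 1.83, with the peak at ZT15.9 ± 0.45 h and an adjusted p of 0.000158.

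Wee1, the kinase that holds CDK1 inactive until the cell is ready for mitosis, lies on chromosome 7 at 110122046 to 110143286, on the plus strand. It was at 0.0954, 0.110 and 0.0724 at ZT2, at 0.172, 0.195 and 0.224 at ZT6, and at 0.321, 0.317 and 0.290 at ZT10. It was at 0.292, 0.262 and 0.188 at ZT14, at 0.324, 0.219 and 0.178 at ZT18, and at 0.118, 0.169 and 0.126 at ZT22. The mice of ZT2 lay below all other mice. Wee1 rose 2.79-fold from trough to peak in the fit, with the peak at ZT12.4 ± 0.63 h, an amplitude of 0.74 ± 0.14 and an adjusted p of 0.000704.

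Ccnd1 encodes cyclin D1, the partner of CDK4 and CDK6 that links growth signals to G1, and lies on chromosome 7 at 144929931 to 144939925, on the minus strand. Its values were 0.483, 0.352 and 0.556 at ZT2, 0.515, 0.385 and 0.367 at ZT6, and 0.645, 0.832 and 0.353 at ZT10. They were 1.36, 1.40 and 1.13 at ZT14, 0.710, 0.611 and 0.817 at ZT18, and 0.670, 0.695 and 0.362 at ZT22. The 3 mice of ZT14 stood above all 15 others. The peak-to-trough ratio was 2.50, the peak fell at ZT15.0 ± 0.86 h, and the adjusted p was 0.00396. The other D cyclins did not pass. Ccnd2 had a mean of 1.29 ± 0.129 (SD, n = 18) with an adjusted p of 0.328, and Ccnd3 had a mean of 1.36 ± 0.256 with 0.278.

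Cdkn1a encodes p21, the CDK inhibitor induced by p53 and by stress, and lies on chromosome 17 at 29090976 to 29100727, on the plus strand. It was at 0.994, 0.587 and 0.588 at ZT2, at 0.257, 0.537 and 0.359 at ZT6, and at 0.191, 0.228 and 0.121 at ZT10. It was at 0.658, 0.274 and 0.324 at ZT14, at 0.226, 0.414 and 0.208 at ZT18, and at 0.936, 1.03 and 0.615 at ZT22. The mice of ZT10 were low and those of ZT22 and ZT2 high, with the mouse of ZT14 replicate 1 among the high values. The peak-to-trough ratio was 3.28, the peak lay at ZT23.3 ± 1.1 h, and the adjusted p was 0.0106, while JTK_Cycle gave an unadjusted p of 0.0708. Because p21 is also a stress gene, its companions were read beside it. Of 16 immediate early genes, which dissociation is known to induce, 2 were rhythmic (Ier3 with a peak at ZT9.46 and Klf4 at ZT4.65). Their summed level was highest at ZT10, 160 ± 10.7, and lowest at ZT14, 105 ± 7.68. Of 14 other p53 targets, 2 were rhythmic (Phlda3 at ZT13.7 and Bax at ZT13.9), and their summed level was highest at ZT14, 3.31 ± 0.585, and lowest at ZT22, 2.49 ± 0.0207. The rhythmic shares of these 2 lists, 12.5% and 14.3%, were near the 13.3% of all genes tested. The part of either list in the rhythm of Cdkn1a was not tested.

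**Figure D1:**
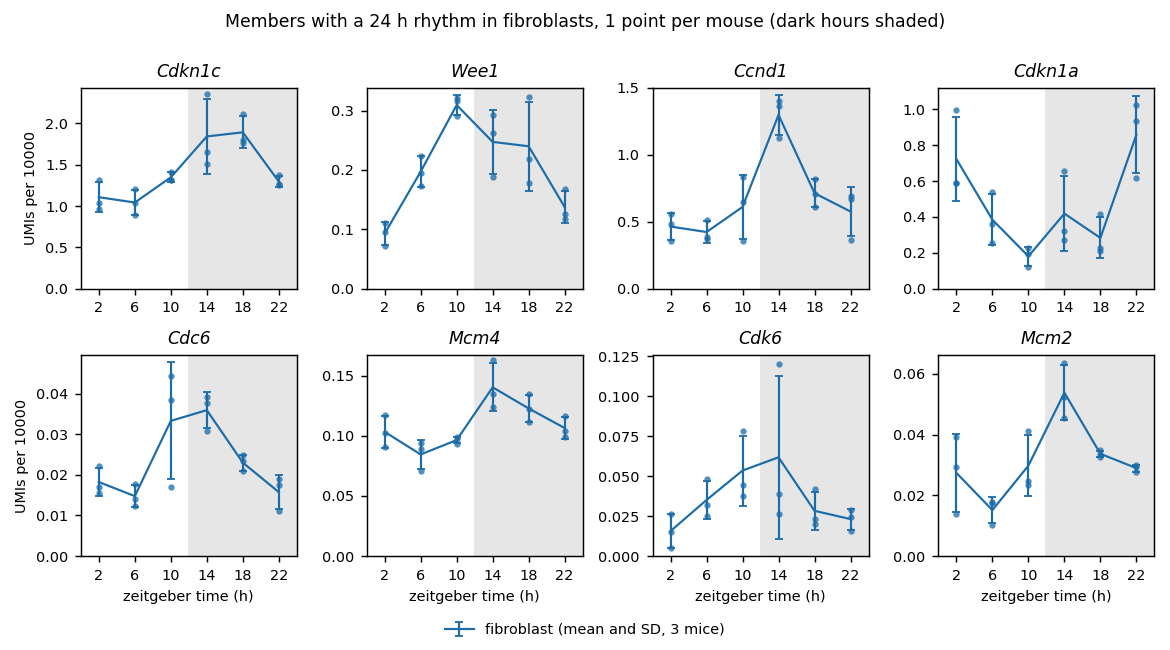
Level of the 8 rhythmic members in fibroblasts (UMIs per 10000, linear axis from 0) against zeitgeber time in hours, with 1 point per mouse and the line and bars giving mean and SD of 3 mice at each time. Cdkn1c, Wee1, Ccnd1, Cdc6, Mcm4, Cdk6 and Mcm2 were highest between ZT10 and ZT18, while Cdkn1a was highest at ZT22 and ZT2.

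The licensing genes rested on fewer counts. Cdc6, the ATPase that brings the helicase to the origin, had 664 UMIs in all fibroblasts, and rose from 0.0148 ± 0.00271 (SD, n = 3) at ZT6 to 0.0360 ± 0.00443 at ZT14. No mouse of ZT6 or ZT22 exceeded 0.0189, and no mouse of ZT14 fell under 0.0309. The adjusted p was 0.0128, with the peak at ZT13.1 ± 1.1 h. Mcm4 and Mcm2 are subunits of the MCM helicase, which unwinds DNA at the fork. Mcm4 rose from 0.0844 ± 0.0121 at ZT6 to 0.140 ± 0.0200 at ZT14, a 1.48-fold fitted change with a peak at ZT16.8 and an adjusted p of 0.0150. Mcm2 rose from 0.0151 ± 0.00426 to 0.0538 ± 0.00911 over the same times, with a peak at ZT15.8 and an adjusted p of 0.0471. The call of Mcm2 was the least firm, since it held in 5 of 18 fits that each left out 1 library and the adjusted p was 0.0629 with the replicate number as a block. Of the remaining helicase subunits, Mcm6 just missed the threshold, with a peak at ZT15.5 and an adjusted p of 0.0597, and Mcm3, Mcm5 and Mcm7 did not pass.

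Cdk6, a kinase partner of the D cyclins, rose from 0.0156 ± 0.0107 at ZT2 to 0.0618 ± 0.0509 at ZT14 with an adjusted p of 0.0244. The ZT14 mean rested on the mouse of replicate 1 at 0.120, with the others at 0.0389 and 0.0264. The library of that mouse held 272 fibroblasts and 273 immune cells. The call was lost without ZT10 replicate 1 (adjusted p 0.0530) and when zeitgeber time was fitted as 6 levels (0.113), and it held in the 17 other fits that each left out 1 library. Since Cdk6 was 8.88 times higher in immune cells, immune transcripts in the fibroblast sums were checked. The summed immune markers in fibroblasts were at 0.200 to 0.494 over the 18 libraries, with means per time from 0.294 at ZT22 to 0.405 at ZT14, and 0 of 7 tested immune markers were rhythmic there. Their part in the rhythm of Cdk6 was not tested.

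None of the fork and nucleotide genes or of the tested mitotic genes passed. Mki67, a chromosome-coating protein of dividing cells, had a mean of 0.0214 ± 0.0262 (SD, n = 18) and an adjusted p of 0.892. Top2a, the topoisomerase that untangles sister chromatids, had 0.0326 ± 0.0384 and 0.992. Both SDs were larger than the means, and at ZT10 alone Mki67 ran from 0 to 0.0904. Pcna, the clamp that holds the polymerase on DNA, had 10316 UMIs and a far smaller relative spread, 0.371 ± 0.0647, with its highest mean at ZT14 (0.447 ± 0.107) and lowest at ZT6 (0.317 ± 0.0316), and its adjusted p was 0.371. With every cell that held a UMI of Mki67 or Top2a taken out of the sums, the 8 rhythmic members were again called and Mcm6 was added, 9 of the 27 members then tested, against 13.4% of the 12717 genes tested in that fit. This fit was added after the data had been seen. Members that fell under the count filter without these cells were not tested, so the 27 are not the set of 38 tested before.

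**Figure D2:**
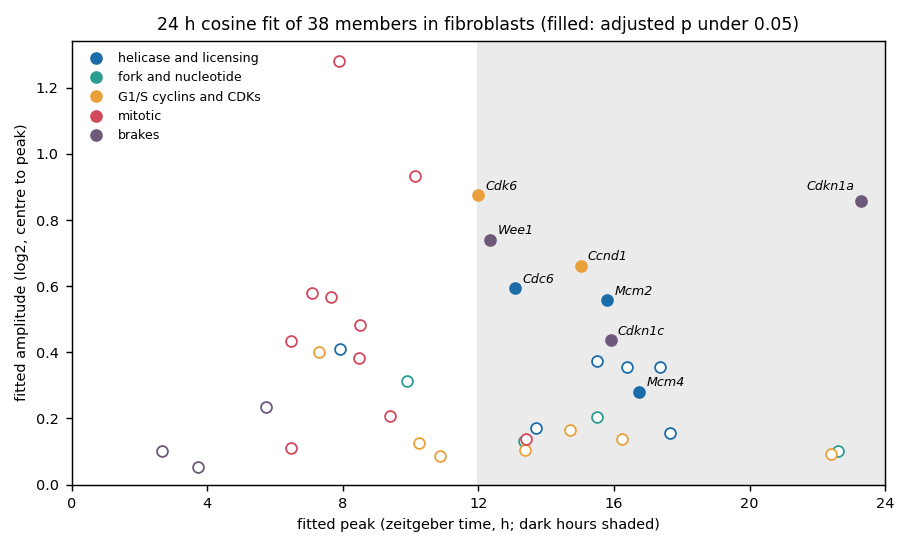
Fitted 24 h amplitude (log2, centre to peak) against fitted peak time (zeitgeber hours, dark hours shaded) for the 38 members tested in fibroblasts, coloured by role, with filled points for an adjusted p under 0.05. The filled points lie at ZT12.0 to ZT16.8 except Cdkn1a at ZT23.3, and the open mitotic points of Cdc20 (1.28 ± 0.76) and Ccnb2 (0.93 ± 0.85, both ± jackknife SE, which is not drawn) lie above them.

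Other genes of the same processes, listed with earlier results of these data known, were read beside the members. In fibroblasts 1 of 28 tested other S phase markers was rhythmic (Atad2, a chromatin ATPase, at ZT13.9), 3 of 41 other G2/M markers (Rangap1, Anp32e and Cks1b, at ZT14.7 to ZT16.0), and 2 of 35 other replication genes (Pold1 at ZT16.2 and Orc2 at ZT17.5). These were shares of 3.57%, 7.32% and 5.71%, each under the 13.3% of all genes tested. The median fitted amplitudes of the 3 lists were 0.1502, 0.2821 and 0.1314 (log2), against 0.1305 over all genes tested. The lower shares thus did not come with smaller amplitudes, and the part of low counts in them was not tested. Of 28 genes in a list of further brakes, RB-E2F genes and other cycle regulators 4 were rhythmic (14.3%), near the 13.3% of all genes. Lin9, a subunit of the complex that controls mitotic genes, peaked at ZT12.5 and Cdkn2d at ZT18.0. Cdc25b and Myc, which are not brakes, peaked by day at ZT8.90 and ZT6.98. For scale, 11 of 12 clock genes were rhythmic in fibroblasts, with Dbp changing 55.6-fold from trough to peak, and the 8 members by 1.48-fold to 3.36-fold.

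To show what lies at the starts of rhythmic and of mitotic members, RefSeq promoter windows of GRCm38.p6 (the build of mm10) were read, from 250 bases before to 50 after the start and on the strand of the gene. Of the 39 members 30 had an entry, with 34 windows in all. Mcm4, Gmnn, Ccnd1, Ccnd2, Ccne2, Ccna2, Aurkb, Cdkn1c and Wee1 were not matched. The 4 rhythmic members with an entry are shown with the mitotic genes Mki67 and Ccnb1. Capitals mark every match, on either strand, to 6 motifs. They are CACGTG, the E-box bound by CLOCK and BMAL1, then TTTNNCGC, a loose form of the E2F site, and TTTGAA, the CHR element of mitotic genes. The others are the CCAAT box, then AGGTCA, the core bound by ROR and REV-ERB receptors, and lastly TTATGNAA, the D-box. N stands for any base, so an E2F match here can differ from the stricter E2F site at those bases, as TTTTACGC in Cdk6 does. In these windows no matches overlapped. Cdkn1a has 2 starts, at chr17:29090729-29091028 and chr17:29093519-29093818, Cdc6 is at chr11:98907901-98908200 and Cdk6 at chr5:3343643-3343942, all on the plus strand. Mcm2 is at chr6:88898731-88899030, Mki67 at chr7:135716330-135716629 and Ccnb1 at chr13:100786437-100786736, on the minus strand.
Cdkn1a, start 1: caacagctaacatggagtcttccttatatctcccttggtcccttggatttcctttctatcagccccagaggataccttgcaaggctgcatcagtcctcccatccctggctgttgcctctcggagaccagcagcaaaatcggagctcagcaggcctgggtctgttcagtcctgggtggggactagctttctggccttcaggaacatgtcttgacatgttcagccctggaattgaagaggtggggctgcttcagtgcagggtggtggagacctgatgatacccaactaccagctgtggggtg
Cdkn1a, start 2: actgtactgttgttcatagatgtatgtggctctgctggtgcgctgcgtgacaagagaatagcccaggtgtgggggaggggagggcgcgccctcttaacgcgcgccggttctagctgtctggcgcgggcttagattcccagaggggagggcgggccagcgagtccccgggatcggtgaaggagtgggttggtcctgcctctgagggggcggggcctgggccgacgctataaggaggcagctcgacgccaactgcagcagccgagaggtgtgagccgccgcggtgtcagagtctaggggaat
Cdc6: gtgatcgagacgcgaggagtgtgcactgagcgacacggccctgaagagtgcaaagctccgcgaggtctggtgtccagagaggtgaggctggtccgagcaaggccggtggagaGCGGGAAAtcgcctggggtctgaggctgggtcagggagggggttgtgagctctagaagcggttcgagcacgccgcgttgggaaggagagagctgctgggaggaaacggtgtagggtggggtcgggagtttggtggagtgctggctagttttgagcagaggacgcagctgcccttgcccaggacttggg
Cdk6: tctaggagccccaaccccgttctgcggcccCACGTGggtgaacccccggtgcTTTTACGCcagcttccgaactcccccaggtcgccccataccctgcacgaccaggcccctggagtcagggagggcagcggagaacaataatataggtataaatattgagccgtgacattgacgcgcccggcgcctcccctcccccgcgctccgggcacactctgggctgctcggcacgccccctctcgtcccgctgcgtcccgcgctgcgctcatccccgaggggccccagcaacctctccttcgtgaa
Mcm2: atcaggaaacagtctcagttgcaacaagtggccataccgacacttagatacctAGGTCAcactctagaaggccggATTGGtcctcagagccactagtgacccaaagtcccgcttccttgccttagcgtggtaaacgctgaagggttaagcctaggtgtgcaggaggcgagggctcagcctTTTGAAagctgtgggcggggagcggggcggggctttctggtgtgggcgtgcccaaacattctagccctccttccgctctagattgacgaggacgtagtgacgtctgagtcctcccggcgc
Mki67: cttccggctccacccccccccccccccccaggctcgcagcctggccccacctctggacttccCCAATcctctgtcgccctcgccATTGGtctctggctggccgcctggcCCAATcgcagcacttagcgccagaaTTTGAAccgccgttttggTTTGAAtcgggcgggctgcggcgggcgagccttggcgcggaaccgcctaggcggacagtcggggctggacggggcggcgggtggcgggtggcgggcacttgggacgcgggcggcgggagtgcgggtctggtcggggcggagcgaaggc
Ccnb1: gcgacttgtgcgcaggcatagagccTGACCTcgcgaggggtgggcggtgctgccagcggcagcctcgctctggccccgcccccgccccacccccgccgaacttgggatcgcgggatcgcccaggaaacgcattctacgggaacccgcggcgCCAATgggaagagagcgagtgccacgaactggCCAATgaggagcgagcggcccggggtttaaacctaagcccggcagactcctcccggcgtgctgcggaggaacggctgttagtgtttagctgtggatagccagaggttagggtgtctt

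Neither Cdkn1a window held any of the 6 motifs. The Cdk6 window held an E-box and an E2F match, the Cdc6 window an E2F match, and the Mcm2 window a CHR, a CCAAT box and a receptor core. The Mki67 window held 2 CHR and 3 CCAAT matches, and that of Ccnb1 2 CCAAT boxes and a receptor core. Over the 34 member windows, E2F letters were in 10, against 5.17% of all 32851 windows. CCAAT was in 22, against 37.4%, and CHR in 8, against 17.9%. The E-box was in 4 (Cdk4, Cdk6, Cdkn2c and Tyms), against 7.15%, the receptor core in 6, against 16.3%, and the D-box in 1, against 3.38%. These are matches of letters, not binding sites.

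The same test in immune cells called 0 of 37 members. By edgeR 10 of 10829 genes (0.0923%) were rhythmic there at all, so the background was also low, though 6 of 12 clock genes were among the 10, and 5 members had an unadjusted p under 0.05 among 871 genes that did. DESeq2 also called 0 members, and JTK_Cycle 0, against 1.41% of all genes. Wee1 came nearest. It was at 0.0914, 0.214 and 0.197 at ZT2, at 0.202, 0.144 and 0.120 at ZT6, and at 0.334, 0.210 and 0.459 at ZT10. It was at 0.329, 0.229 and 0.175 at ZT14, at 0.166, 0.226 and 0.196 at ZT18, and at 0.118, 0.116 and 0.130 at ZT22. The fitted peak was at ZT11.5 ± 1.1 h, the peak-to-trough ratio 2.21 and the unadjusted p 0.00274, which became 0.399 after adjustment. The mice of ZT22 were low, as were 1 mouse of ZT2 and 1 of ZT6, and the times overlapped. A library had 8 to 130 Wee1 UMIs in immune cells and 77 to 667 in fibroblasts.

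The remaining members with an unadjusted p under 0.05 in immune cells were the mitotic genes Cdc20, Cdk1 and Ccnb1, with fitted peaks at ZT11.7, ZT12.9 and ZT14.5, and the licensing factor Cdt1 at ZT9.37. Their adjusted p-values were 0.542, 0.562, 0.567 and 0.585. Ccnd1 had its highest immune mean at ZT14, as in fibroblasts, 1.13 ± 0.191, and its lowest at ZT2, 0.628 ± 0.382, with an adjusted p of 0.731. Cdkn1a, whose level moved 3.28-fold in fibroblasts, had means between 1.78 ± 0.637 at ZT22 and 2.34 ± 0.858 at ZT18 in immune cells, differences smaller than their SDs.

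Whether the rhythm itself differed between the classes was tested as an interaction of class with time, with the library as a block. By edgeR 0 of 31 members passed, against 0.331% of all 11480 genes, and 1063 genes had an unadjusted p under 0.05, among them 5 members. Cdkn1a came nearest, with an unadjusted p of 0.000644 and an adjusted p of 0.115. It passed with DESeq2 (0.0286) and with no filter on low counts (0.0257), and over all alternatives its adjusted p ran from 0.0257 to 0.268. For Wee1 the adjusted p of the difference was 0.862, for Ccnd1 0.684 and for Cdkn1c 0.737, which became 0.0482 with cells named by a gate on summed markers in place of clusters. A member called rhythmic in fibroblasts alone was thus not shown to differ between the classes. In all kept cells summed, 3 of 39 members were rhythmic (Ccnd1, Cdkn1c and Wee1), against 5.13% of all genes. JTK_Cycle called 3 there too (Mcm4, Cdkn1c and Wee1), against 6.01%.

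**Figure D3:**
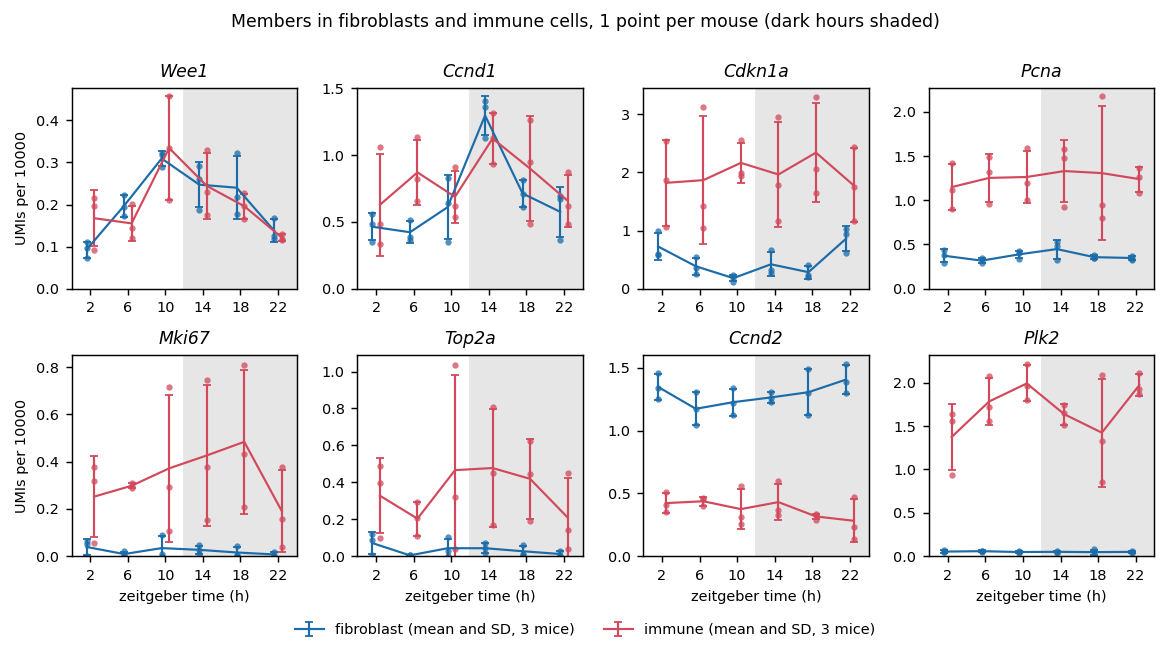
Level of 8 members (UMIs per 10000) in fibroblasts and immune cells against zeitgeber time, with 1 point per mouse and lines and bars giving mean and SD of 3 mice. Wee1 lay at about the same level in both classes, Ccnd2 lay higher in fibroblasts, and Cdkn1a, Pcna, Mki67, Top2a and Plk2 lay higher in immune cells, with wide error bars for Mki67 and Top2a.

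The classes were then compared in level. In immune cells 20 of 31 members tested were higher and in fibroblasts 6 were higher, by edgeR with the library as a block, against 40.7% and 43.0% of all genes. The 26 that differed in either direction were thus near the background, 83.6% of all genes, and the split between the directions was not tested against it. The median log2 difference was 1.33 over the 31 members and -0.02 over all genes. All 9 licensing and helicase genes and all 5 mitotic genes tested were higher in immune cells, while the D cyclins Ccnd2 and Ccnd3, the kinase Cdk4 and the inhibitors Cdkn1b and Cdkn1c were higher in fibroblasts. The count filter kept a gene that reached its cutoff in 1 class alone. A member low in fibroblasts, such as Aurkb (mean 0.00663 against 0.120 in immune cells), thus entered through the immune cells. For such members the direction was in part set by the filter, and it is a description. The 8 members not tested in this comparison were the low-count genes Ccne1, Ccne2, Ccna2, Ccnb1, Cdc20, Aurka, Bub1 and Plk1. With no filter on counts all 8 were higher in immune cells, by 0.96 to 3.37 on the log2 scale.

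The largest difference was that of Plk2, a stress-induced polo-like kinase, at 0.0493 ± 0.0139 in fibroblasts and 1.70 ± 0.378 in immune cells (SD, n = 18). The fitted log2 difference was 5.08 ± 0.12 (± SE) with an adjusted p of 1.63e-21, and it was higher in immune cells in 18 of 18 libraries. Aurkb, a kinase of the chromosome passenger complex, followed with 4.13 ± 0.30, then Mki67 with 3.96 ± 0.33 and Gmnn, the geminin that blocks relicensing, with 3.75 ± 0.18. Cdt1, the licensing factor that geminin binds, differed by 3.56 ± 0.16. For each of these the immune level was higher in 18 of 18 libraries. Aurkb, Mki67, Gmnn and Cdt1 were low in fibroblasts, with means of 0.00663, 0.0214, 0.0103 and 0.0141. The caveat on the count filter thus applies to these members, and their direction is a description.

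In the other direction Cdkn1c stood out, at 1.42 ± 0.392 in fibroblasts against 0.0900 ± 0.0419 in immune cells, and higher in fibroblasts in 18 of 18 libraries. The log2 difference, immune minus fibroblast, was -3.94 ± 0.13 with an adjusted p of 1.02e-18. The level in immune cells was a median of 6.17% of that in fibroblasts of the same library, where the fibroblast markers themselves stood at a median of 2.27%, and the part of fibroblast transcripts in it was not tested. Ccnd2 differed by -1.79 ± 0.11, Ccnd3 by -0.94 ± 0.07, Cdk4 by -0.79 ± 0.07, Cdkn1b by -0.37 ± 0.06 and the reductase subunit Rrm1 by -0.30 ± 0.07. Ccnd2, Ccnd3 and Cdk4 were lower in immune cells in 18 of 18 libraries, and Cdkn1b and Rrm1 in 16.

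Pcna was at 0.371 ± 0.0647 in fibroblasts and 1.26 ± 0.340 in immune cells, a log2 difference of 1.72 ± 0.08. Cdkn1a was at 0.475 ± 0.286 and 1.99 ± 0.703, with 2.18 ± 0.23. Another 5 members did not pass. Ccnd1 differed by 0.25 ± 0.13 (adjusted p 0.0705), Tyms by 0.14 ± 0.15, Wee1 by 0.06 ± 0.13, E2f1 by 0.04 ± 0.06 and Cdkn2c by -0.15 ± 0.11. The call of Mcm4, with 0.26 ± 0.11 and an adjusted p of 0.0430, held in 7 of 18 fits that each left out 1 library, and the adjusted p was 0.380 with no filter on low counts.

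The wider lists were read in the same fit, against the same 40.7% and 43.0% of all genes. Of 34 other G2/M markers tested 25 were higher in immune cells and 6 in fibroblasts, of 19 other S phase markers 15 and 2, and of 30 other replication genes 18 and 4. These lists held 46, 32 and 38 genes before the count filter. For a gene that passed the filter through 1 class alone the direction was in part set by it. The counts are thus a description, and they were not tested against the shares of all genes. Gas2l3 was higher by 5.86 and Cenpa, the centromeric histone, by 5.16 on the log2 scale, while Cbx5, a heterochromatin protein, differed by -1.16. Of 24 tested brakes, RB-E2F genes and other cycle regulators 12 were higher in immune cells, among them the retinoblastoma gene Rb1 at 1.90. Another 5 were higher in fibroblasts, among them E2f7, a repressor of the E2F family, at -4.02 and Myc at -1.97.

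**Figure D4:**
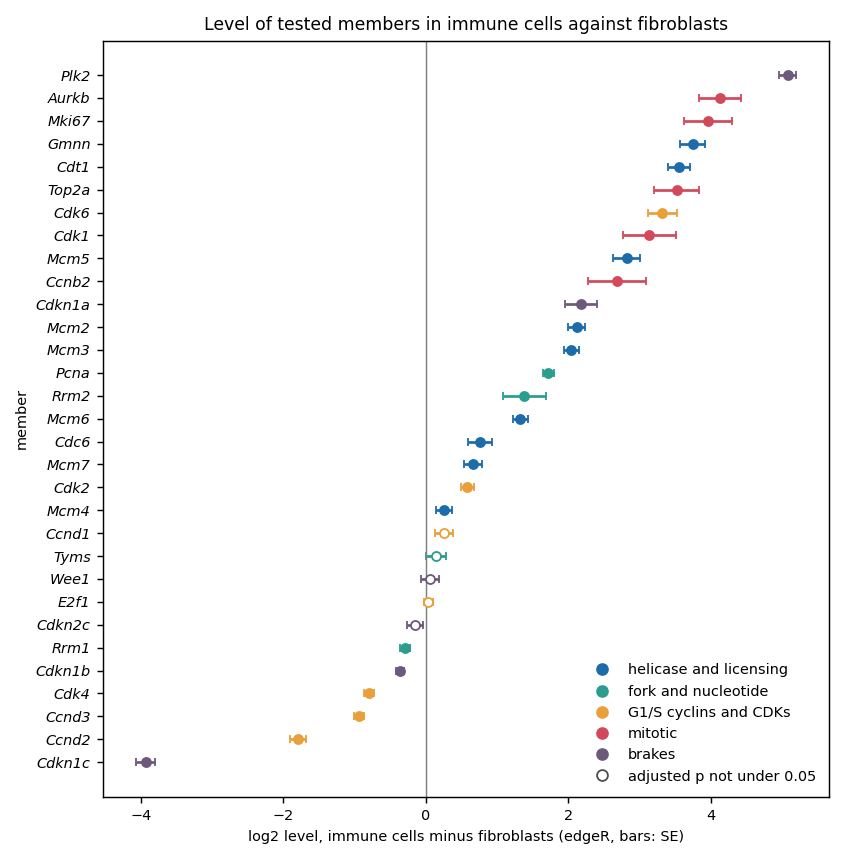
Log2 difference in level, immune cells minus fibroblasts (edgeR, library as a block, bars give the SE), for the 31 members tested, coloured by role, with open points for an adjusted p not under 0.05. Licensing and mitotic genes lie to the right of 0, and Cdkn1c, Ccnd2, Ccnd3, Cdk4, Cdkn1b and Rrm1 to the left.

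To ask how many cells the mitotic levels came from, cells with at least 1 UMI of Mki67 or Top2a were counted, after each cell had been thinned to 5000 UMIs so that depth was equal. This left out 212 fibroblasts and 658 immune cells with fewer UMIs. Of 11708 fibroblasts 66 were positive, 0.564% with an exact (Clopper-Pearson) 95% interval of 0.436 to 0.717%, and of 2720 immune cells 171, 6.29% with 5.40 to 7.27%. Muscle cells, which do not divide, gave 0 of 497, which allows up to 0.739% by the same interval. Intervals cover counting error only. The muscle interval reached above the fibroblast share of 0.564%. The 497 muscle cells were thus too few to tell whether fibroblasts taken as a whole lay above this background, and no test was made. Without thinning the shares were 1.54%, 9.09% and 0.136%, at median depths of 22410, 10974 and 6601 UMIs per cell.

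Per mouse, the share was 0.549 ± 0.464% (SD, n = 18) in fibroblasts and 6.32 ± 2.12% in immune cells. Fibroblasts ran from 0 to 1.62% and immune cells from 2.74 to 10.1%, with no overlap. Immune cells were higher in 18 of 18 libraries, by 5.77 ± 2.00 percentage points, with p = 7.63e-06 by an exact two-sided sign-flip permutation test, the smallest p that 18 libraries allow.

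Among fibroblast clusters, 1 of 43 cells from 12 libraries, led by Hist1h2ap, Stmn1 and Top2a, held 34 of the 66 positive cells. There 34 of 42 thinned cells were positive (81.0%, 65.9 to 91.4%). Its cells had a median of 32690 UMIs, 1.73 times the median of their libraries. Since it is led by genes that mark division, its share is a description. Without it, the per-mouse share in fibroblasts was 0.310 ± 0.291%. Among immune clusters the share was 16.9% (35 of 207) in T cell-like cells led by Ccl5 and Gzma, 21.7% (5 of 23) in B cell-like cells, 8.45% (68 of 805) in monocyte-like cells led by Lyz1 and Il1b, 3.73% (48 of 1288) in macrophage-like cells led by Apoe and C1qa, 3.85% (12 of 312) in those led by Hmox1, and 0 of 38 in neutrophil-like cells, which allows a share of up to 9.25%. The B cell-like share had an exact interval of 7.46 to 43.7%. The histone genes Hist1h2ap and Hist1h2ae were among the leading genes of the B cell-like cluster, so its share is also a description. The names are approximate. The monocyte-like cluster met 4 macrophage markers and 3 monocyte markers, and H2-Ab1, H2-Eb1, H2-Aa and Cd74 of MHC class II presentation were also among its leading genes. The T cell-like cluster met 5 T cell markers and 4 natural killer (NK) cell markers. Macrophage-like and monocyte-like cells together still had 5.41 ± 2.28% per mouse.

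The positive cells held most transcripts of the mitotic genes given here, which are Cdk1, Ccnb2 and Ccna2 in fibroblasts and Ccna2 and Cdk1 in immune cells. Shares of the other mitotic members are not given. Positive here means at least 1 UMI of Mki67 or Top2a without thinning, which gave 184 fibroblasts and 307 immune cells. These cells had a median of 28668 UMIs in fibroblasts and 17119 in immune cells, against 22334 and 10513 in the other cells. Without thinning a deeper cell is more likely to count as positive, so this gap was in part set by the definition. In fibroblasts 1.54% of the cells held 2.11% of the class's UMIs, but 93.3% of its Cdk1 UMIs, 91.1% of Ccnb2 and 82.6% of Ccna2. They held 46.01% of Gmnn, 31.5% of Mcm5, 10.3% of Pcna and 8.52% of Mcm4. For the G1 genes and brakes the positive cells held little, with 3.66% of Ccnd1, 1.73% of Ccnd2, 1.87% of Cdkn1c and 3.096% of Wee1. In immune cells 9.09% of cells held 13.6% of UMIs, 96.6% of Ccna2, 95.8% of Rrm2 and 86.6% of Cdk1, and 13.8% of Plk2. A fit of the level without these cells in either class was added after the data had been seen. In it 21 of 25 members tested differed in level, against 83.0% of all genes in that fit, so the count was near the background. Among them were Tyms, Ccnd1 and Cdkn2c, which had not passed before. The log2 difference was then 3.504 for Cdt1, 3.67 for Gmnn, 1.63 for Pcna, 5.13 for Plk2 and -3.94 for Cdkn1c. Mcm7 went from 0.66 to -0.17 and Mcm4 from 0.26 to -0.12, and neither then passed, while Tyms went from 0.14 to -0.42 (adjusted p 0.00181).

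Over the day, the share of positive immune cells was lowest at ZT22, 4.25 ± 2.00% (SD, n = 3), and highest at ZT14, 8.57 ± 1.50%. The 3 mice of ZT14 were at 7.14, 8.45 and 10.1%, and those of ZT22 at 3.49, 6.51 and 2.74%, with no overlap. The 24 h cosine had an R squared of 0.404 over the 18 libraries, a peak at ZT12.4 and p = 0.0234 by a permutation test with 100000 draws, which was 0.0468 after adjustment over the 2 classes tested. By the adjusted p the call was lost under all 9 alternatives besides leaving out a library, the replicate block among them (adjusted p 0.0538), and in 14 of 18 fits that each left out 1 library. It was kept without ZT6 replicate 1 or 2, ZT10 replicate 3 or ZT22 replicate 2. The adjusted p was 0.561 without thinning, 0.243 with cells thinned to 10000 UMIs, 0.115 without ZT14 replicate 3, and 0.143 in macrophage-like and monocyte-like cells alone. The library of ZT14 replicate 1 had 33.7% of its immune cells in the neutrophil-like cluster, against at most 6.86% at the other times, and the part of this in the share was not tested. In fibroblasts the means ran from 0.142 ± 0.246% at ZT6 to 0.827 ± 0.283% at ZT14, 4 of 18 libraries had 0 positive cells, and p was 0.348.

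**Figure D5:**
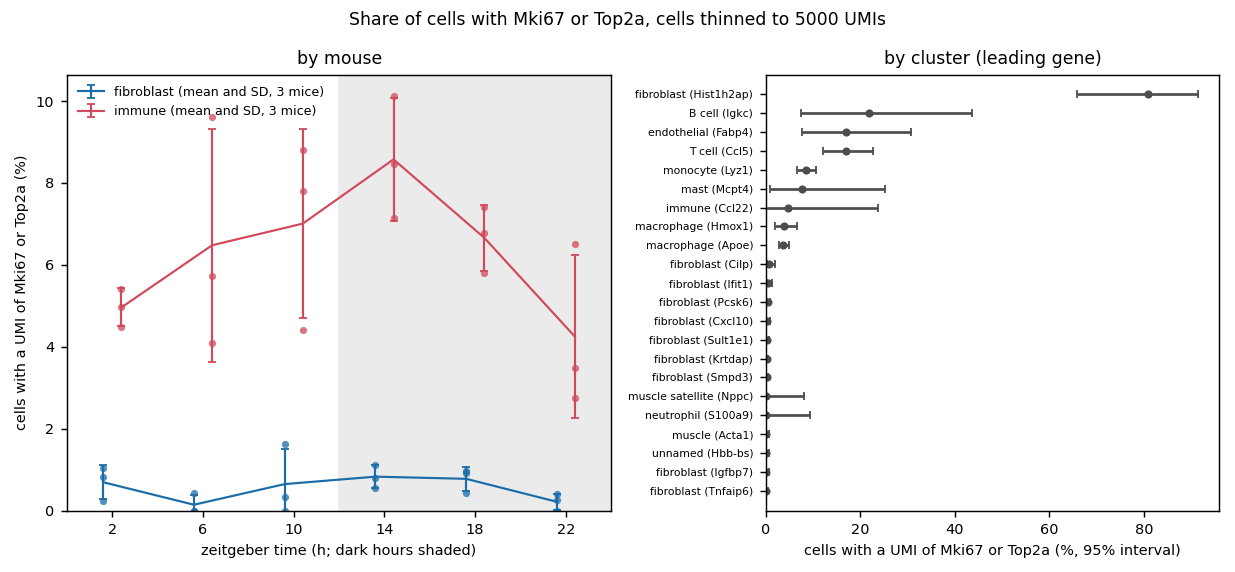
Left, percent of cells with a UMI of Mki67 or Top2a against zeitgeber time for fibroblasts and immune cells, with 1 point per mouse and lines and bars giving mean and SD of 3 mice. Right, the same percent per cluster with its exact 95% interval, clusters named by class and leading gene. Immune cells lie above fibroblasts in every mouse, and a fibroblast cluster led by Hist1h2ap stands apart at 81.0%.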

How the data were processed

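Per the study's methods and the file headers, the authors made the deposited UMI count matrices with Cell Ranger 3.1.0 (named in the submitters' processing notes) on mm10, 1 library per mouse, with no normalization beyond Cell Ranger's own output. Here cells with 850 to 7800 genes and under 13% mitochondrial UMIs, the study's limits, were kept. They were clustered in scanpy 1.11.5 (2000 variable genes, 30 components, 15 neighbours, Leiden resolution 0.8) without 189 cell cycle and clock genes, though histone genes stayed in. Clusters were named from fixed markers by a rule set after the clusters had been seen. No doublet caller was run, and removing cells with markers of both classes was an alternative.

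Counts were summed per library and class and tested in edgeR 4.0.16 (R 4.3.3, TMM, filterByExpr, quasi-likelihood F test of the cosine and sine of a 24 h period), with Benjamini-Hochberg adjustment over all genes tested. Differences between the classes used the library as a block. DESeq2 1.42.0, JTK_Cycle (periods of 20, 24 and 28 h), other scalings and filters, and leaving out each library were alternatives, and the scripts were tested on simulated data. The JTK_Cycle p was adjusted over its 18 templates of period and phase, not over genes. Shares of cells with Mki67 or Top2a were taken after thinning each cell to 5000 UMIs.

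The sample titles give collection hours on 3 successive days, so the replicate number marks a day. Deviations of fibroblast sums from the means of their time correlated at -0.123 to 0.314 between same-numbered libraries, over 0.1 in 9 of 45 pairs. In immune sums 15 of 45 pairs were over 0.1 (-0.255 to 0.245), and in all kept cells 14 of 45 (-0.363 to 0.440). The mean correlation was 0.041 in fibroblasts, 0.047 in immune cells and 0.016 in all kept cells. Between libraries of different numbers it was -0.020, -0.023 and -0.007. In fibroblasts 11 of 18 libraries correlated best with a library of their own number, in immune cells 10 and in all kept cells 8. A day effect was not tested further, and the replicate block was an alternative.

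The members and gene lists were chosen with earlier results of these data known. Genes were described where they passed the rhythm test in either class, with Mki67, Top2a, Pcna, Wee1, Cdkn1a, Cdkn1c, Ccnd1 and Ccnd2 always shown, then the 5 largest level differences in each direction and the members that did not pass. Up to 3 genes of each other list were named by smallest p. Promoters were to be those of the 4 members of smallest p. As 3 of these had no entry, the 4 rhythmic members with one were shown instead, beside Mki67 and Ccnb1, which were always to be shown. The protocol describes 1 mouse per suspension and the study calls the 3 samples of a time biological replicates, so each library was taken as 1 mouse.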

Additional observations from a re-analysis of the deposited data

Results flagged for a closer look

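Cells outside both classes also held Mki67 or Top2a. In the endothelial-like cluster, led by Fabp4 and used in no comparison, 8 of 47 thinned cells were positive (17.02%, exact 95% interval 7.65 to 30.8%), above the 0 of 497 muscle cells. It was noted for lying in cells that no comparison used. Its 81 cells came from 18 libraries, so no test over mice was made.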

How the results depend on the processing

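Of 8 rhythmic members in fibroblasts, 4 passed JTK_Cycle. The count was 7 to 9 under the other alternatives and 6 to 11 with 1 library left out. With the replicate number as a block it was 7, Mcm2 was lost, and no other call of a member in either class changed. In all kept cells 3 members passed, 5 with DESeq2 and 2 to 5 with 1 library left out. No difference in rhythm between the classes passed, but 1 did with DESeq2, 1 with no filter and 1 with the marker gate.

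The rhythm of the immune share of Mki67 or Top2a cells had p = 0.0234 by permutation, 0.0468 adjusted over the 2 classes. By adjusted p it was lost under every other alternative but 4 of the 18 that left out a library. The unadjusted p was 0.0269 with the replicate block (adjusted 0.0538). It was also lost without thinning (0.485), thinned to 10000 (0.121) or 2500 UMIs (0.0587), at 2 UMIs (0.118), for Mki67 alone (0.255), with the marker gate (0.0635), without cells of both classes (0.0557) and in macrophage-like and monocyte-like clusters alone (0.129, chosen after seeing the data), all given unadjusted. With 1 library left out it ran from 0.00418 to 0.0577, the latter without ZT14 replicate 3.

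Level differences near 0 turned direction. E2f1 was at -0.00754 with DESeq2, -0.0137 with RLE size factors, -0.0987 with no filter, -0.0207 with the gate, -0.00628 without cells of both classes, -0.0305 without Mki67 or Top2a cells, and -0.00289 to 0.0549 with 1 library left out. Wee1 was at -0.0228 with DESeq2, -0.0771 with no filter, -0.0138 with the gate, -0.0292 without Mki67 or Top2a cells, and -0.0463 to 0.108 with 1 library left out. Tyms was at -0.417 without Mki67 or Top2a cells. The causes were not tested.

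Over all genes, rhythmic genes in fibroblasts were 1699, against 1076 with 6 time levels and 995 by JTK_Cycle, in immune cells 10, against 35 with DESeq2, 19 with no filter, 6 with 6 levels and 153 by JTK_Cycle, and in all kept cells 740, against 1640 with DESeq2 and 339 with 6 levels. The genes whose rhythm differed between classes were 38, against 94 with DESeq2. With 1 library left out these counts ran over 1202 to 1828, 7 to 19, 469 to 1007 and 13 to 44.

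The immune sum of a library held as few as 481549 UMIs, and the part of depth in the immune counts was not tested.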

Other observations

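In 44 thinned muscle satellite-like cells, led by Nppc and Chodl, 0 held Mki67 or Top2a, which allows a share of up to 8.04% by the exact interval. Mast-like cells had 2 of 26, and the cluster led by Ccl22 and Fscn1 had 1 of 21. The unnamed cluster led by haemoglobin genes had 0 of 554, which allows up to 0.664%.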
